A study of Brassica rapa subsp. pekinensis with 6 samples.

Results

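Small RNA sequences that were listed under the names of plant miRNAs, but in most cases ended in the bases CCA as a mature tRNA does, were examined in germinated Chinese cabbage seeds. All table rows whose name held miR1511, miR5054, miR5059, miR5072, miR5077, miR5139, miR8175 or miR10423, or the same number after MIR, were taken, which gave 25 names on 32 rows. These rows held 22 distinct sequences out of the 889 in the table. The 8 numbers were selected on the 3′ ends of these reads and on their read counts in the Nor and Ver libraries of the same data. All differences of the members between the groups are therefore given as a description. Counts of calls from the fit over the whole table are printed for orientation, with no p for a member, and neither the CCA ends nor the lower level in Ver is a result here.

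Small RNA (total RNA, TruSeq Small RNA kit) was sequenced from 3 non-vernalized (Nor) and 3 vernalized (Ver) libraries of whole germinated seeds of Brassica rapa subsp. pekinensis. Both groups were of the double haploid line 'FT' from the variety 'Fukuda 50', so the plants were of 1 genotype, and the seeds of 1 culture dish made up 1 biological replicate. All seeds had germinated on wet filter paper at room temperature. Nor seeds then stayed at room temperature for about 48 h, Ver seeds were kept at 4 °C for 25 days, both in the dark per the methods of the study, and sampling took place when both groups had reached the same length. Cold and the length of the treatment cannot be told apart in this design, and libraries of whole seeds do not show which tissue a read came from.

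A tRNA carries an amino acid to the ribosome. Its strand folds into a cloverleaf of an acceptor stem, a D arm, an anticodon arm and a T arm, and the enzyme that finishes it adds the bases CCA to the 3′ end after transcription, because plant nuclear tRNA genes do not usually encode them. Cleavage in the T arm leaves a short 3′ fragment with the CCA on it, and cleavage near the D arm or the anticodon leaves a 5′ fragment. A plant miRNA is made in another way, by Dicer-like enzymes that cut a hairpin of a longer transcript. LTR retrotransposons also carry letters complementary to a tRNA 3′ end, since a tRNA primes their reverse transcription, so such letters can stand in a genome without a tRNA gene around them.

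The 7 sequences under the 8 listed names were all 18 nt long, the shortest length kept in the table, and all ended in CCA. They are shown because they carried most of the reads described here. Capitals mark bases 2 to 8, the position of the seed in a miRNA, and the CCA at the 3′ end.
osa-miR5077_L-1_1ss5GA: tTCACGTCgggttcaCCA
ath-miR8175_L-2: tCCCCGGCaacggcgCCA
gma-MIR10423-p3_1ss3AC: cTCTCAATgaaagcaCCA
cas-miR5139_L-1: aACCTGGCtctgataCCA
bdi-miR5054_1ss8GA: tCCCCACAgtcggcgCCA
bdi-miR5059_L-2_1ss3GT: tCCTGGGCagcaccaCCA
osa-miR5072_L-4_1ss13GA: tCCCCAGCagagtcgCCA
The sequence of cas-miR5139_L-1 was also listed as ppe-miR1511-3p_L+1R-4 and as aof-miR5139b_L-3, so these 3 names are a single measurement. No 2 of the 7 had bases 2 to 8 in common. All 7 shared the last 3 bases.

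The longer sequences that passed the low-count filter are shown next, because several were the 18-nt sequences with further bases on the 5′ side. The capitals are as before, and the last one had no CCA at its end.
ath-miR8175_L+3: tTCGATCCccggcaacggcgCCA
ath-miR8175_L+4: gTTCGATCcccggcaacggcgCCA
ath-miR8175_L+1_1ss3AT: cGTTCCCCggcaacggcgCCA
ath-miR8175_1ss1GA: aATCCCCGgcaacggcgCCA
aof-miR5139a_L+3: aTCGAAACctggctctgataCCA
aof-miR5139a_L+1: cGAAACCTggctctgataCCA
aof-MIR5139a-p5: aACCTGGCtctgataccaattgtt
The 18 letters of ath-miR8175_L-2 closed 6 longer member sequences, ath-miR8175_L+3 and ath-miR8175_L+4 among them. The 18 letters of cas-miR5139_L-1 closed aof-miR5139a_L+1 and aof-miR5139a_L+3, and they opened aof-MIR5139a-p5, in which further bases followed the CCA.

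Of the 22 sequences, 18 ended in CCA, 8 of them 18 nt long and 10 longer. The other 4 had another 3′ end. There were 11 sequences named miR8175, 5 named miR5139 and 2 named miR10423, and each of the other numbers gave 1, with that of miR1511 being 1 of the 5 named miR5139. In the table as a whole 33 sequences ended in CCA, so 15 lay outside the set, and only 1 of those 15 was 18 nt long. That sequence, gra-MIR7492m-p5_2ss13CG17TC, had 8.83, 10.9 and 8.09 RPM in Nor 1 to 3 and was listed at 0 in all Ver libraries. RPM is the number of reads per 1e6 reads of the TMM-scaled table total of a library. The table totals ranged from 749852 to 968483 reads in Nor and from 589061 to 771529 in Ver. They cover only the reads listed in the table, which are a part of the reads left after the filters of the study. They are not the sequencing depth.

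The share of the table taken by these sequences was determined first. All members together held 5.27, 7.25 and 5.79% of the reads in Nor 1 to 3 and 1.48, 1.17 and 1.22% in Ver 1 to 3. The lowest Nor library (5.27%, 95% Wilson interval 5.23 to 5.32) lay above the highest Ver library (1.48%, 95% Wilson interval 1.45 to 1.51). The intervals cover counting error only. The mean share was 6.10% ± 1.02 for Nor against 1.29% ± 0.168 for Ver (mean ± SD of 3 libraries), 4.74 times that of Ver. In whole seeds, fewer cells of a type and less RNA per cell cannot be told apart.

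Nearly all of this share lay at the shortest length. The CCA-ending members of 18 nt held 5.98% ± 1.03 of the reads for Nor against 1.26% ± 0.166 for Ver (mean ± SD of 3 libraries). Longer CCA-ending members held 0.119% ± 0.00631 and 0.0244% ± 0.00278, a ratio of 4.85 against 4.74 for the 18-nt members. The 4 members with another end held 0.00395% ± 0.000881 and 0.00215% ± 0.000163, a ratio of 1.84. The libraries of the groups did not overlap in any of the 3 classes. Of all member reads, 98.0% ± 0.428 in Nor and 98.0% ± 0.231 in Ver were 18 nt long. Reads under 18 nt were not analysed here, so the full length profile of these fragments cannot be read from the table.

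**Figure D1:**
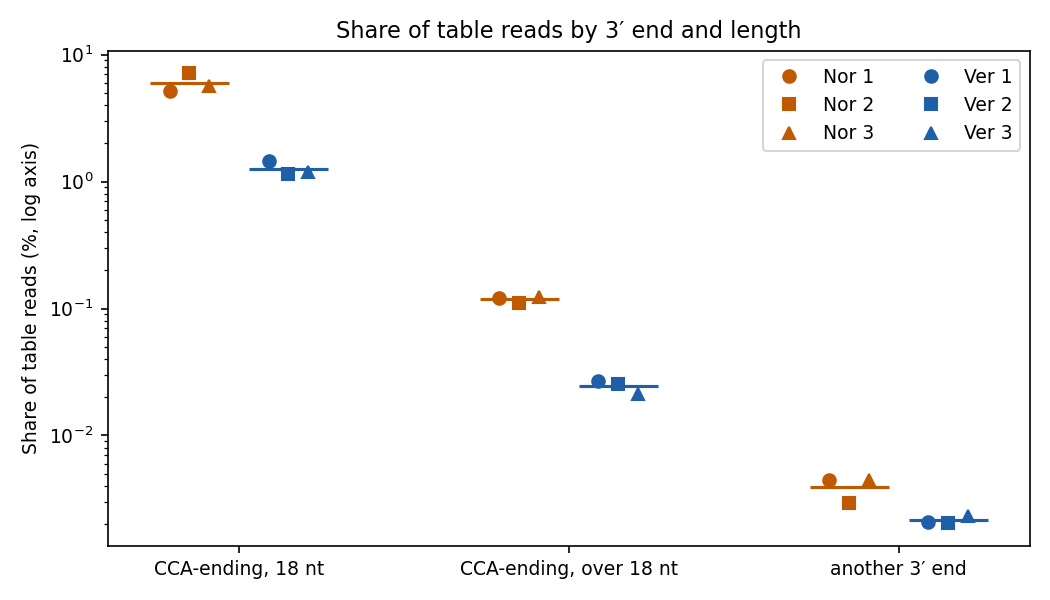
Share of table reads in percent (log axis) held by the CCA-ending members of 18 nt, the longer CCA-ending members and the members with another 3′ end, per library. Each symbol is 1 library and each line is a group mean over 3 libraries. The Nor libraries lay above the Ver libraries in each class, at 5.98 against 1.26% for 18 nt. The class with another 3′ end rests on few reads.

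Among all 18-nt reads of the table, the CCA-ending members made up 98.6% ± 0.164 for Nor against 92.0% ± 0.453 for Ver (mean ± SD of 3 libraries). The 18-nt class of this table was therefore almost entirely made of these 8 sequences in both groups. The remaining 18-nt reads came from 39 sequences outside the set and from 1 member without a CCA end.

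Low values were filtered with the default rule of edgeR, which 14 of the 22 members and 405 of the 889 sequences passed. Of the 14 members, 12 were called lower in Ver at an adjusted p under 0.05 and 0 higher. Over all 405 tested sequences, 61.0% were called, and 32.8% were called in the direction lower in Ver. Every Nor library was above every Ver library in 16 of the 22 members, against 25.3% of all 889 sequences. The members were picked with this contrast known, so nothing is read from these counts. A member that passed the filter through its Nor reads alone also had to be lower in Ver.

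The most abundant member was osa-miR5077_L-1_1ss5GA. It reached 21954, 32403 and 25542 RPM in Nor 1 to 3 and 6667, 5244 and 5969 RPM in Ver 1 to 3. By mean level it was the 7th sequence of the table in Nor and the 24th in Ver. The log2 fold change, Ver over Nor, was -2.16 ± 0.14 (SE, edgeR). The groups did not overlap, and the lowest Nor library was over 3 times the highest Ver library. This sequence alone made up 43.8% ± 0.116 of all member reads for Nor against 46.0% ± 0.492 for Ver (mean ± SD of 3 libraries).

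The 18-nt sequence ath-miR8175_L-2 had 13593, 20217 and 16051 RPM in Nor 1 to 3 and 4671, 3439 and 3884 RPM in Ver 1 to 3. Its log2 fold change was -2.05 ± 0.16 (SE), and it moved from the 12th to the 35th place by mean level. As with osa-miR5077_L-1_1ss5GA, Nor 2 was the highest library, Nor 1 the lowest of Nor, and Ver 1 the highest of Ver. The third large member, gma-MIR10423-p3_1ss3AC, had 9539, 14666 and 11071 RPM in Nor and 2102, 1664 and 1839 RPM in Ver. Its log2 fold change was -2.65 ± 0.16 (SE).

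These 3 sequences made up about the same part of the member reads in every library of a group, with a difference between the groups. The part of gma-MIR10423-p3_1ss3AC was 19.3% ± 0.512 in Nor and 14.4% ± 0.114 in Ver, and that of ath-miR8175_L-2 was 27.3% ± 0.162 and 30.8% ± 1.02 (SD, n = 3 each). The groups did not overlap in either part. The first fell by 4.85 percentage points from Nor to Ver, and the second was 3.46 points higher in Ver.

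The other 4 of the 7 sequences were less abundant. The sequence of cas-miR5139_L-1, which is also ppe-miR1511-3p_L+1R-4, had 1313, 1675 and 1583 RPM in Nor 1 to 3 and 270.1, 299.4 and 251.4 RPM in Ver 1 to 3, a log2 fold change of -2.47 ± 0.12 (SE). The sequence of bdi-miR5054_1ss8GA had 1179, 1827 and 1405 RPM in Nor and 353.8, 314.4 and 316.5 RPM in Ver (-2.16 ± 0.16). The groups of both sequences did not overlap. The sequence of bdi-miR5059_L-2_1ss3GT had 738.1, 994.3 and 866.7 RPM in Nor and 171.8, 141.4 and 161.7 RPM in Ver (-2.44 ± 0.14). The least abundant, osa-miR5072_L-4_1ss13GA, had 613.5, 911.6 and 722.5 RPM in Nor and 107.7, 66.5 and 156.5 RPM in Ver (-2.77 ± 0.26). It had the widest relative spread in Ver of the 7, and its groups still did not overlap.

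**Figure D2:**
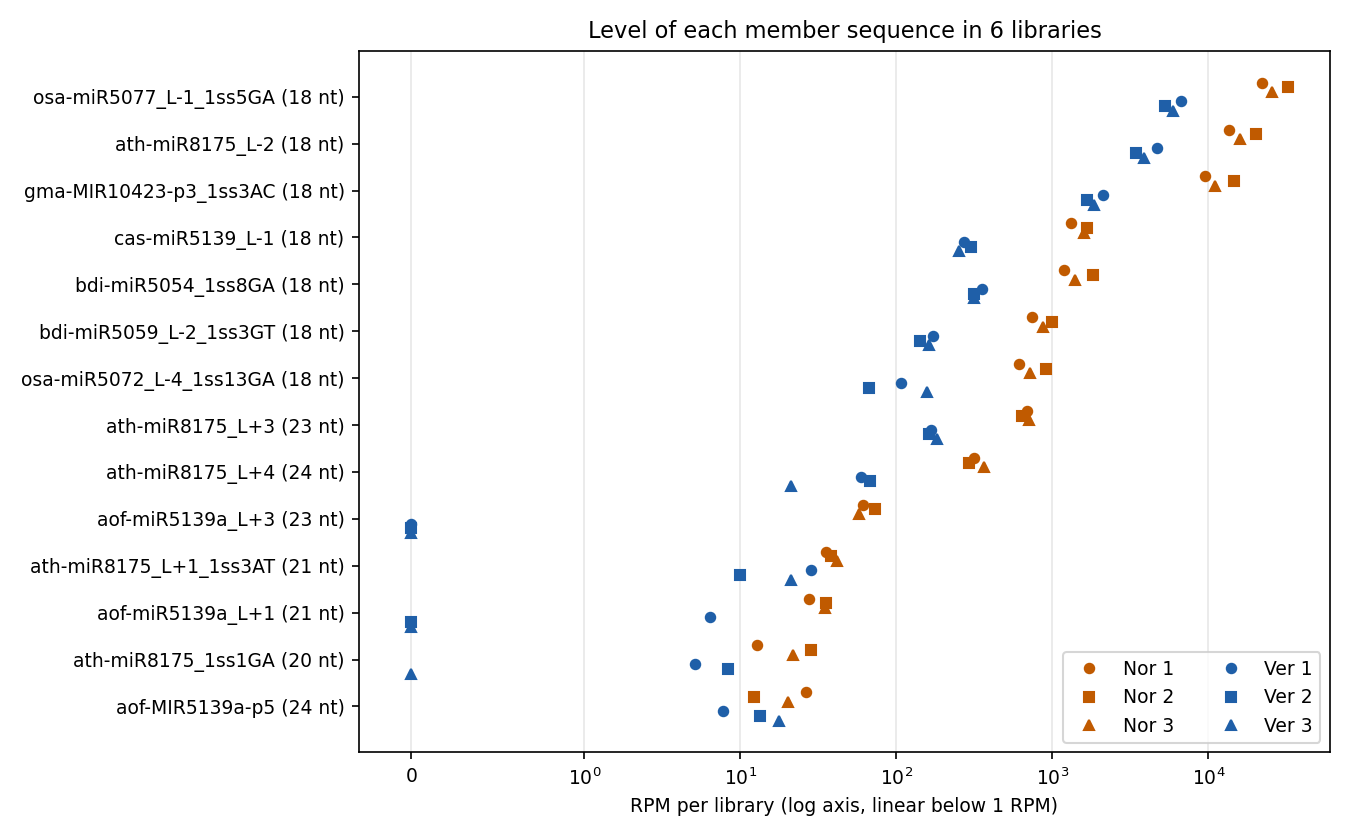
Level of the 14 member sequences that passed the low-count filter, in RPM (log axis, linear below 1 RPM), with 1 symbol per library. The Nor and Ver libraries stood apart in all rows except aof-MIR5139a-p5, and aof-miR5139a_L+3 was listed at 0 in all 3 Ver libraries.

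The log2 fold changes of the 7 sequences of 18 nt ran from -2.77 to -2.05. They were selected on these counts, so nothing is read from how close they lie. Their order was osa-miR5072_L-4_1ss13GA, gma-MIR10423-p3_1ss3AC, cas-miR5139_L-1, bdi-miR5059_L-2_1ss3GT, osa-miR5077_L-1_1ss5GA, bdi-miR5054_1ss8GA and ath-miR8175_L-2. Neighbours in this order lay within the sum of their standard errors, except that bdi-miR5059_L-2_1ss3GT (-2.44 ± 0.14) and osa-miR5077_L-1_1ss5GA (-2.16 ± 0.14) lay just at that sum.

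The libraries of 1 group were also ordered alike. In 7 of these 7 sequences Nor 1 was the lowest and Nor 2 the highest Nor library, and in 5 of 7 Ver 1 was the highest Ver library. Of the 6 longer CCA-ending members that passed the filter, Nor 1 was the lowest in 3 and Nor 2 the highest in 3. The SD of log2 RPM over the 3 Nor libraries was 0.29 for the sum of the 18-nt members and 0.07 for the sum of the longer ones. The spread between the Nor libraries was thus larger in the sum of the 18-nt members than in that of the longer ones. These sums differ in their sequences as well as in length. In Ver these SDs were 0.18 and 0.12.

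The longer reads named miR8175 were examined next. The 23-nt sequence ath-miR8175_L+3 had 682.2, 634.8 and 705.0 RPM in Nor 1 to 3 and 165.4, 161.4 and 182.8 RPM in Ver 1 to 3, a log2 fold change of -1.99 ± 0.11 (SE). The 24-nt sequence ath-miR8175_L+4 had 312.1, 290.3 and 361.9 RPM in Nor and 59.6, 67.4 and 21.1 RPM in Ver (-2.69 ± 0.29). Both ended at the same base as ath-miR8175_L-2. The 18-nt form made up 93.7% ± 1.28 of the CCA-ending miR8175 reads for Nor against 94.2% ± 0.785 for Ver (mean ± SD of 3 libraries), and the groups overlapped. The group means of this share differed by less than the spread between libraries.

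Other forms of miR8175 were rare. The 21-nt sequence ath-miR8175_L+1_1ss3AT had 35.3, 38.0 and 41.8 RPM in Nor and 28.2, 9.98 and 21.1 RPM in Ver. Its log2 fold change of -0.93 ± 0.39 (SE) was smaller in size than that of the other CCA-ending members, although its groups did not overlap. The 20-nt sequence ath-miR8175_1ss1GA had 12.8, 28.5 and 21.6 RPM in Nor and 5.13, 8.32 and 0 RPM in Ver. All Ver libraries were at 5 reads or fewer, which a listed 0 may also stand for, and against 5 reads in each Ver library it was at least 2.67-fold lower in Ver.

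For miR5139, the 23-nt sequence aof-miR5139a_L+3 had 60.9, 73.3 and 58.0 RPM in Nor 1 to 3 and was listed at 0 in all Ver libraries, so it was at least 8.17-fold lower in Ver against 5 reads in each Ver library. The 21-nt sequence aof-miR5139a_L+1 had 27.5, 35.3 and 35.0 RPM in Nor and 6.41, 0 and 0 RPM in Ver, at least 4.16-fold lower. The longer forms therefore made up only a small part of the CCA-ending miR5139 reads in Nor, where the 18-nt form held 94.0% ± 0.387 (SD, n = 3), and were near the detection limit in Ver. There the 18-nt form held 97.7, 100 and 100% of these reads (95% Wilson intervals from 94.7, 97.9 and 97.4% upwards).

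The 24-nt sequence with the same first 18 letters, aof-MIR5139a-p5 (also listed as aof-MIR5139a-p3), went on past the CCA with genomic bases. It had 26.5, 12.2 and 20.2 RPM in Nor and 7.69, 13.3 and 17.6 RPM in Ver, and its groups overlapped. Its log2 fold change was -0.65 ± 0.53 (SE). It shared bases 2 to 8 with cas-miR5139_L-1, whose log2 fold change was -2.47.

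The other 8 members did not pass the filter. Their highest library was at most 23.1 RPM, and 10 of all 22 members were at 5 reads or fewer in every Ver library, 8 of them listed at 0. None was listed at 0 in all Nor libraries. The internal sequence ath-MIR8175-p3_2ss13TC17AC had 10.8, 17.6 and 6.74 RPM in Nor and 12.8, 6.65 and 7.03 RPM in Ver, with overlapping groups. The sequence gma-MIR10423-p3, which differs from gma-MIR10423-p3_1ss3AC at 1 base, had 0, 20.3 and 8.09 RPM in Nor and 0 in all Ver libraries.

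The sums were compared by 3′ end. The log2 ratio of mean RPM, Ver over Nor, was -2.23 for the CCA-ending members and -0.85 for the other members. The CCA-ending sum was 60809 ± 12051 RPM for Nor against 12942 ± 1601 RPM for Ver, and the other sum was 39.1 ± 8.12 and 21.7 ± 2.54 RPM (SD, n = 3 each). The second sum rests on few reads and on 4 sequences. The members were selected on their CCA ends and on these counts, so nothing is read from the difference between the sums.

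Sequences outside the set with the same 3′ end or the same length were described for comparison. Of the 15 CCA-ending sequences outside the set, 6 passed the filter, with a median log2 fold change of -0.47. There were 2 called lower and 2 called higher in Ver, with bra-miR391-5p the highest (36.2 ± 2.51 RPM for Nor against 324 ± 31.5 RPM for Ver, mean ± SD of 3 libraries). Of the 39 18-nt sequences outside the set, 16 passed, with a median of -0.39, and 5 were called lower and 3 higher. The median over all 405 tested sequences was -0.19, and that of the 14 members was -2.16 with the 3 sequences near the detection limit set to their bounds. The classes differ in level and number, and no test was made between them. The members were selected on these same counts, so nothing is read from how far their median lies from the others.

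**Figure D3:**
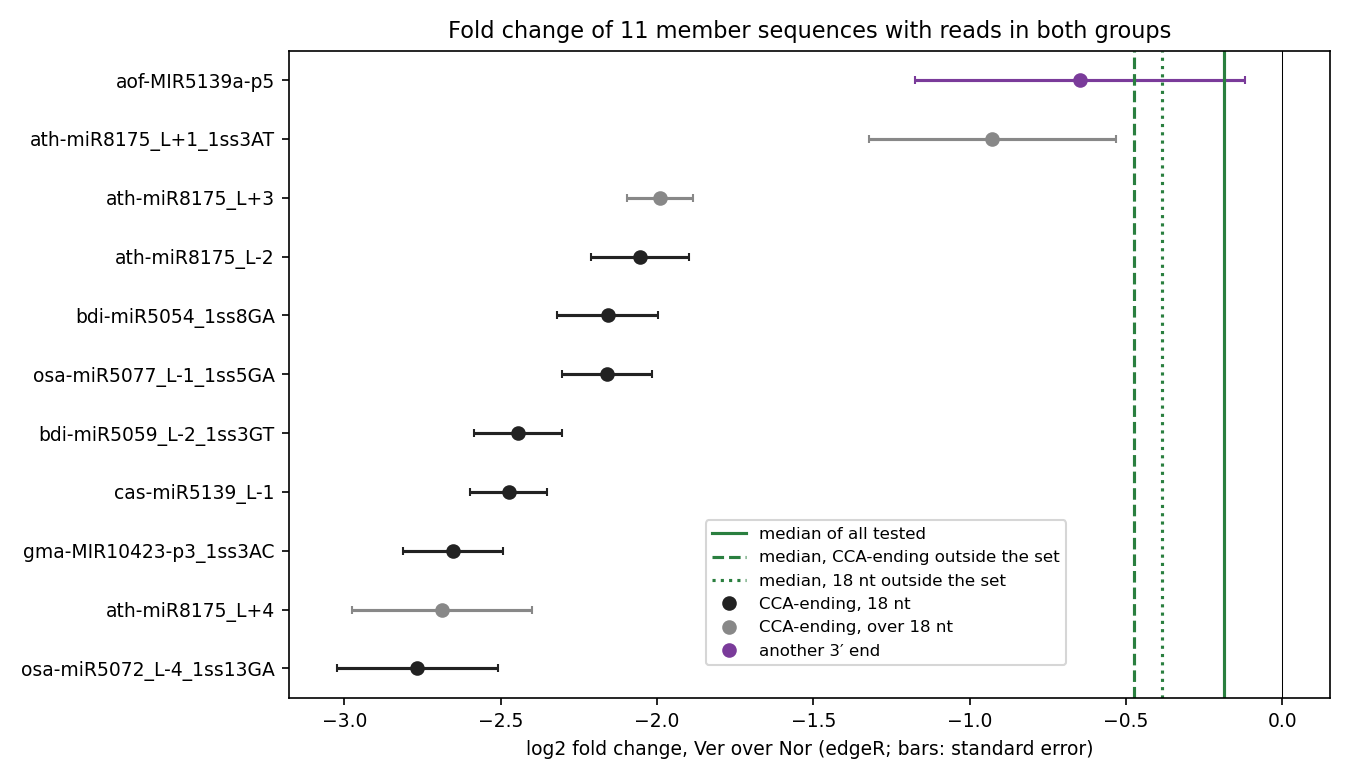
Log2 fold change, Ver over Nor, of the 11 filtered members that had more than 5 reads in at least 1 Ver library (points; bars are standard errors), with medians of 3 classes as vertical lines. The CCA-ending 18-nt members lie between -2.77 and -2.05 and the class medians between -0.47 and -0.19. The members were selected on these same counts.

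The letters before the CCA were then looked up in the rest of the table. A run of the 8 bases before the CCA of a member occurred in 4 sequences outside the set. Of these, ath-miR845a passed the filter. In Arabidopsis, miR845 is known to match the primer binding sites of retrotransposons. It had 113.9, 93.6 and 124.0 RPM in Nor and 82.0, 86.5 and 73.8 RPM in Ver, a log2 fold change of -0.45 ± 0.18 (SE) with an adjusted p of 0.0573 (edgeR, Benjamini-Hochberg). It contains the letters before the CCA of cas-miR5139_L-1 and continues beyond them.

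The genome windows deposited with the members (B. rapa v3.0) were read against the sequences. Of the 32 member rows, 26 carried a window, and the read matched it exactly on 14 rows and differed from it at 1 base on 12. Of the 20 CCA-ending rows with a window, 18 windows also read CCA at that place, and 12 of these went on past it. Both windows of gma-MIR10423-p3_1ss3AC, on chromosome A01 (5872791 to 5872823, minus strand) and on chromosome A03 (29955403 to 29955482, minus strand), differed from the read by C17A, with the base of the read first and positions counted from its 5′ end. The CCA of this abundant read was thus not in either window. Its rarer partner gma-MIR10423-p3 matched its window on chromosome A09 (15219147 to 15219187, minus strand) without a difference.

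The hairpin values of the members were compared with those of other rows. All 26 rows with a window were of class gp2b, for which the table header states that the extended locus may not form a hairpin. Of these rows, 16 (61.5%) had a hairpin length of at least 50 bases and a free energy of -15 kcal/mol or lower, against 54.1% of all gp2b rows. In the classes gp1a (the known B. rapa miRNAs), gp2a, gp3 and gp4, 100% of the rows met both limits, and 95.5% did in gp1b. The 6 member rows without a window were of class gp3 and had hairpin values in the table that met both limits too. The lower share is therefore that of the gp2b rows alone. The gp3 member rows listed no genome position, so their hairpin values are not those of a listed B. rapa locus.

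Class gp3 holds reads matched to a mature miRNA of another plant but not placed on the genome. Its member rows held the 4 sequences osa-miR5077_L-1_1ss5GA, ath-miR8175_L-2, cas-miR5139_L-1 and osa-miR5072_L-4_1ss13GA. They made up 94.3% ± 1.36 of all gp3 reads for Nor against 77.4% ± 5.24 for Ver (mean ± SD of 3 libraries). The letters of ath-miR8175_L-2 nevertheless stood in 10 deposited windows of other rows and those of cas-miR5139_L-1 in 7. The letters of osa-miR5077_L-1_1ss5GA and osa-miR5072_L-4_1ss13GA stood in none. The label gp3 was thus not the same as absence from the genome for at least 2 of the 4.

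The windows were also searched for a tRNA cloverleaf, with no limit set for the D arm. The search asked for an acceptor stem of 7 base pairs, an anticodon arm and a T arm of 5 base pairs with loops of 7 bases, G-T pairs allowed, 1 unpaired base and CCA. It was met in 2 of the 26 member windows (7.69%) and in 2 of all 904 windows of the table (0.221%), so no other window held one. The search needs a CCA in the window and the members were selected on CCA ends, so nothing is read from the higher share of member windows. A tRNA gene that does not encode its CCA is not found by this search. The first was the window of bdi-miR5059_L-2_1ss3GT on chromosome A09 (36405214 to 36405292, plus strand), with the anticodon TAC, which reads a valine codon. The second was the window of ath-miR8175_L+4 on chromosome A09 (4408526 to 4408669, minus strand), with the anticodon GTC, which reads an aspartate codon. Both are printed from the first base of the acceptor stem, with the CCA in capitals.
TAC cloverleaf: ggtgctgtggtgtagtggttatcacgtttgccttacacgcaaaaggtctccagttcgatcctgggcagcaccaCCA
GTC cloverleaf: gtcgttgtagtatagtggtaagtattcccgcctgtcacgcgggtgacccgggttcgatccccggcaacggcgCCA
The TAC cloverleaf had 76 bases and the GTC cloverleaf 75. The sequence of bdi-miR5059_L-2_1ss3GT covered bases 59 to 76 of the first, from within the T loop through the 3′ side of the acceptor stem to the CCA. No other sequence of the table lay in it.

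The GTC cloverleaf held reads from both ends, so the ends of 1 fold could be set side by side. The member sequences ath-miR8175_L-2, ath-miR8175_L+3 and ath-miR8175_L+4 covered bases 58, 53 and 52 to 75. The first pair began within the T loop and the last at the final base of the stem before it. The sequence of ath-MIR8175-p3_2ss13TC17AC covered bases 16 to 33. At the 5′ end lay 23 sequences outside the set, all named miR6300 or MIR6300. Many of these carried identical, divided values (10 distinct value sets in 23 sequences), so only the 6 that start at base 1 or 2 are described.

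The most abundant of these 6, gma-miR6300_R+5, covered bases 1 to 23 and had 311.2, 362.2 and 405.7 RPM in Nor 1 to 3 and 692.2, 840.1 and 764.8 RPM in Ver 1 to 3. The 18-nt sequence gma-miR6300_L-1R+1, bases 2 to 19, had 121.7, 101.7 and 140.2 RPM in Nor and 596.0, 557.3 and 494.0 RPM in Ver. Each Ver library of this 18-nt sequence lay above each Nor library. The sequence gma-miR6300_L-1R+8, bases 2 to 26, was lower in Ver (119 ± 15.9 RPM for Nor against 71.1 ± 13.4 RPM for Ver, mean ± SD of 3 libraries).

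Summed over these 6 sequences, the 5′ end had 906.5, 1046 and 1045 RPM in Nor 1 to 3 and 2016, 2109 and 1996 RPM in Ver 1 to 3. The 3 CCA-ending members of the same fold had 14587, 21142 and 17118 RPM in Nor and 4896, 3667 and 4088 RPM in Ver. The log2 ratio of means, Ver over Nor, was 1.03 for the 5′ end and -2.06 for the 3′ end, so these sums differed in opposite directions. Over all 23 sequences of the 5′ part, shared values included, the median log2 fold change was 0.11. Of them 10 were called higher in Ver, 1 lower and 12 not called. These 23 sequences held only 10 distinct value sets, so copies of 1 measurement are counted more than once. Nothing is read from this median or these counts. Of all 405 tested sequences, 114 were called higher in Ver, 133 lower and 158 not called. The 3′ sum was 17.6 ± 2.30 times the 5′ sum for Nor against 2.07 ± 0.345 times for Ver (mean ± SD of 3 libraries). This ratio does not depend on the scaling of a library. It does depend on which reads were kept, since the study removed reads matched to tRNA and reads outside its length limits. Whether both ends lost the same part of their reads in each group was not tested. The ratio thus describes the reads of the table and not all fragments of this fold. The reads of a fragment may come from several tRNA genes with the same letters, and the 3′ members were picked for their difference, so no test was made.

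**Figure D4:**
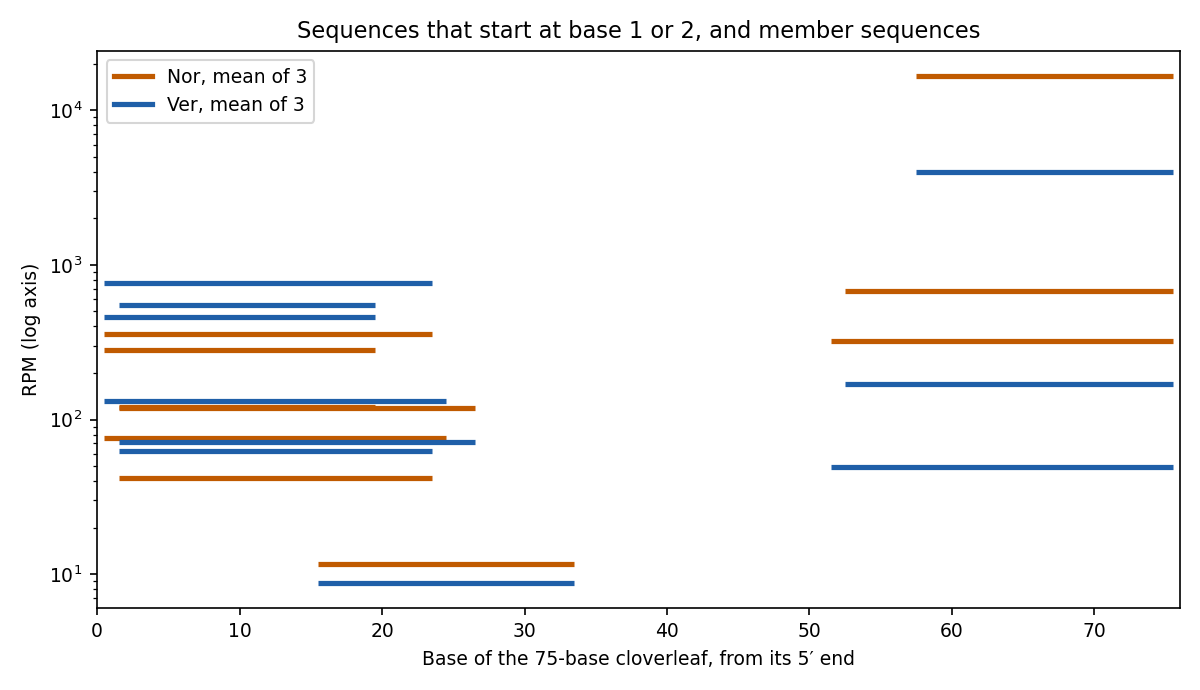
Position on the 75-base GTC cloverleaf (x axis, bases from its 5′ end) and mean RPM over 3 libraries (y axis, log) of the 6 sequences that start at base 1 or 2 and of the 4 member sequences, with 1 line per sequence and group. At the 3′ end the Nor lines lie above the Ver lines, and at the 5′ end 5 of the 6 sequences have the Ver line above the Nor line.

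The sequences outside the set whose pattern over the 6 libraries was most like that of the summed CCA-ending members were sought by the root mean square difference of centred log2 RPM. The closest were bna-miR394a (0.15), bra-miR156b-3p (0.21), bna-miR169n (0.22), sbi-MIR395l-p3_2ss13TC18GT (0.23) and PC-3p-2287_2359 (0.23). For bna-miR394a the levels were 12779, 14243 and 13676 RPM in Nor 1 to 3 and 3257, 2918 and 3316 RPM in Ver 1 to 3. Among the 13 CCA-ending members that passed the filter, the same measure ran from 0.04 for osa-miR5077_L-1_1ss5GA, which itself makes up much of the sum, through 0.44 for osa-miR5072_L-4_1ss13GA and 0.66 for ath-miR8175_L+4 to 2.40 for aof-miR5139a_L+3, which was listed at 0 in Ver. A lower level of this size in Ver was thus also seen in sequences named for known miRNA families.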

How the data were processed

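Germinated seeds of 2 groups, Nor and Ver, were profiled by small RNA sequencing in 6 libraries. Per the methods of the study, the authors removed low-complexity reads and reads of common RNA families, tRNA included, and matched unique sequences of 18 to 25 nt to miRBase 21.0. The table is therefore no measure of all tRNA fragments. The deposited raw values are estimated counts, divided over rows by a rule not given in the sources used here, and the deposited normalized values are a signal, the raw value times 1 factor per library. The authors also deposited hairpin length in bases and free energy in kcal/mol, other values that were used as listed.

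The rows of each distinct sequence were added and rounded to whole numbers. The main test was the quasi-likelihood test of edgeR 4.0.16 (R 4.3.3) with TMM factors (0.949 to 1.05), filterByExpr, group only, and Benjamini-Hochberg adjustment over 405 sequences. A standard error is the log2 fold change over the root of F. The script was tested on simulated data. A listed 0 may stand for up to 5 reads. Named sequences were those of the 8 listed names and every other member that passed the filter, and a few others were named after their values were seen. The members and lists were chosen with earlier results of these data known. Replicates differed beyond counting error (chi-square per degree of freedom 3.01 to 11.7), and each was counted once. Other scalings, filters, DESeq2 1.42.0, a replicate block and leaving out each library were tried.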

Additional observations from a re-analysis of the deposited data

How the results depend on the processing

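With all reads kept after the filters of the study as the denominator instead of the table total, the difference in the share of members, Ver minus Nor, was -0.443 percentage points instead of -4.82, and that of CCA-ending members was -0.443 instead of -4.81, because the denominator is larger. The log2 ratio of the CCA-ending sum ran from -2.27 to -2.01 when each library was left out and was -2.10 with the factors of the authors, which moved the median of all sequences by 0.133. Of 217 refitted values of 14 named sequences, 208 kept their direction and their side of the threshold, 8 lost it, 1 passed it and 0 changed sign. The 8 were all of ath-miR8175_1ss1GA (-2.33 to -1.56), without any 1 of the Nor libraries, without Ver 1 or Ver 3, with DESeq2, with no filter and with the replicate block. The gain was of ath-miR8175_L+1_1ss3AT without Ver 1 (-1.23). With the replicate block 204 sequences were called instead of 247, and 11 members instead of 12. At least 10 reads in every library left 189 calls, 9 of them members. The study states no pairing of same-numbered libraries, so the numbers were not taken as pairs. Such libraries deviated together only weakly (correlations 0.13, -0.06 and 0.03). So few libraries cannot show whether any of them shared a dish. With 3 libraries a group and a length limit of 18 nt, low members and shorter fragments cannot be resolved. Library totals hold only the reads of this table.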
